A study of Mus musculus with 2 samples.

Results

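The suppressors of cytokine signalling (SOCS) family comprises 8 genes in the mouse, Socs1 to Socs7 and Cish, and their surroundings were examined in a genome-wide map of PPARγ binding in TH2 cells. The members were taken by name, and 8 of 8 were found among 21851 protein-coding genes. A peak was assigned to a gene when the peak centre lay nearest to one of that gene's protein-coding transcription start sites (TSS) and within 100 kb of it. By this rule 6 of 2537 peaks belonged to the family. A further 7 peaks lay in a neighbouring gene body within 100 kb of a member, and 2 more lay within 100 kb but in no gene body, which makes 15 peaks in all. The cells came from C57BL/6J mice: naive CD4+ T cells were activated, cultured under TH2 conditions and transduced on days 1 and 2 with a retrovirus that expresses PPARγ carrying a TY1 tag. Chromatin was taken on day 4 and precipitated with a TY1 antibody, so the map shows the introduced, tagged receptor. The 1 ChIP library was set against 1 input library of the same transduced cells, prepared without antibody. Both groups therefore carried the retrovirus; no untransduced control was analysed here, and of several experiments mentioned in the series text 1 replicate was used. No test between groups was possible, and counts are given beside the same count over all genes or all peaks. The files hold no expression values, so the TH2 identity of the cells was not checked here.

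PPARγ is a nuclear receptor that binds DNA with its partner RXR, classically at DR1 elements, which are direct repeats of the core AGGTCA separated by 1 base. SOCS proteins close a feedback loop: cytokines act through receptors, JAK kinases and STAT factors, STATs switch on Socs genes, and the proteins then bind receptors or JAKs through an SH2 domain. Their carboxy-terminal SOCS box docks onto elongins B and C and a cullin, which directs ubiquitin to the bound partner. In T helper cells the family shapes responses to IL-2, IL-4, IL-6, IL-12 and interferons.

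Socs1, Socs2, Socs3 and Socs5 had an assigned peak (4 of 8, 50.0%, exact 95% binomial interval 15.7 to 84.3), whereas Socs4, Socs6, Socs7 and Cish had none. Over all protein-coding genes the share was 7.68%. Socs1 held 3 of the 6 peaks, and 0.357% of all genes had 3 or more. When the starts of noncoding transcripts of protein-coding genes were also used, 2 of these went to Clec16a and Socs1 kept 1, while the same 4 members had a peak. The call depended on distance: within 10 kb of a start, 1 member (Socs3) had any peak, against 4.16% of all genes. With any start within 100 kb counted, 6 of 8 members had a peak (exact interval 34.9 to 96.8), against 23.5% of genes. These intervals cover counting error only.

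The sequences of the 6 assigned peaks are shown because they show which peaks carry DR1 (2 of the 3 at Socs1 and the 1 at Socs2) and which do not. Each is the plus strand of mm10, 173 bases, 5′ to 3′. Capitals mark motif matches on either strand. DR1 was allowed up to 2 mismatches in its 12 fixed bases, and its core AGGTCA, the half-site, was also counted alone. The AP-1 motif was TGACTCA, whose reverse complement is TGAGTCA. STAT palindromes were TTC and GAA with 3 bases between them, or 4 bases for the STAT6 type. For GATA factors the letters AGATAA, and in a separate search TGATAA, were used. For RUNX factors the letters were TGTGGT. ETS sites were AGGAAGT, with the variant that starts with C included (CGGAAGT).
Socs1, 30.8 kb downstream, chr16:10754641-10754813: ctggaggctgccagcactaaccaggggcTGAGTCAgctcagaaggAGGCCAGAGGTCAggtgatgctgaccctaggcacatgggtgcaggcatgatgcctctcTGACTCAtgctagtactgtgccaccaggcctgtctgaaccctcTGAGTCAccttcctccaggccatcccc
Socs1, 82.9 kb downstream, chr16:10702524-10702696: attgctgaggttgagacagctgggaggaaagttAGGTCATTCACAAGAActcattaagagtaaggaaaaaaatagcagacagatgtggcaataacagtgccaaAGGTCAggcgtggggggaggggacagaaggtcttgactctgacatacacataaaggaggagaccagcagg
Socs1, 83.6 kb downstream, chr16:10701816-10701988: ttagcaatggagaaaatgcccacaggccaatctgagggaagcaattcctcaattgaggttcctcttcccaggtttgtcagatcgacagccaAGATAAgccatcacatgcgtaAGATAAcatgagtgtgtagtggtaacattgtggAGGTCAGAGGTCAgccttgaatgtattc
Socs2, 25.7 kb upstream, chr10:95442492-95442664: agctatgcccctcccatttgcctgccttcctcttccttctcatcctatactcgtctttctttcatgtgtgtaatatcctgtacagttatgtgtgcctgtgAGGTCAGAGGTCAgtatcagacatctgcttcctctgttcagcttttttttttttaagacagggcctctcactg
Socs3, 1.13 kb upstream, chr11:117970231-117970403: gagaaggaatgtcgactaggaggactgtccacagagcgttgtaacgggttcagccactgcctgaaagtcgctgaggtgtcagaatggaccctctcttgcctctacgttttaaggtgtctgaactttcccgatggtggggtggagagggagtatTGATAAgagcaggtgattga
Socs5, 11.4 kb downstream, chr17:87118980-87119152: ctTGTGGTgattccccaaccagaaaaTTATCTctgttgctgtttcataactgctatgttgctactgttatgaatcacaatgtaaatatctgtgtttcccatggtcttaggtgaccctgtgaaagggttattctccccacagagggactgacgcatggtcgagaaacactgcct

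**Figure D1:**
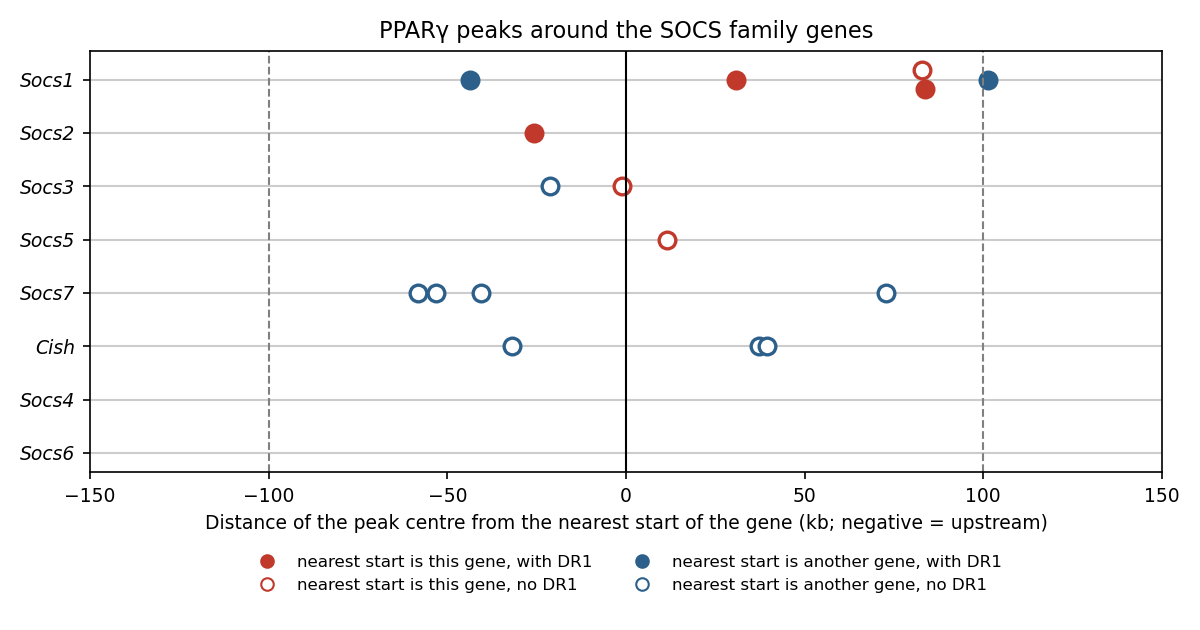
Positions of PPARγ peak centres along each SOCS family gene, in kb from the nearest protein-coding start of that gene, with negative values upstream. Red marks peaks assigned to the member, blue marks peaks nearest to another gene's start, filled symbols hold a DR1 match, and dashed lines stand at 100 kb; 2 Socs1 peaks that lie 708 bp apart are drawn one above the other. Socs4 and Socs6 have no peak in the window.

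Socs1, which encodes an inhibitor of JAK kinases in interferon and IL-4 signalling, had the most assigned peaks of the family. Its only protein-coding start lies at chr16:10785536 on the minus strand. All 3 assigned peaks lay downstream of the gene, at 30.8, 82.9 and 83.6 kb. The nearest one was intergenic. It held a DR1 match with 1 mismatch (T4C, counted from 1 at the 5′ end of the 13-base element, consensus base first) and 3 AP-1 sites, the sites of FOS and JUN dimers. Peaks with 3 or more AP-1 sites numbered 2 of 2537 in the whole map, and this was the 1 of them that also held DR1.

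The other 2 Socs1 peaks lay in an intron of Clec16a, a neighbouring gene that encodes an endosomal membrane protein. Their centres were 708 bp apart, and 3.82% of all peaks had another peak within 1 kb. The peak at 83.6 kb held an exact DR1 with a G spacer, 65 bp from its centre, and 2 GATA sites. The peak at 82.9 kb held no DR1 match: its closest site had 3 mismatches (A1G, G2T and T4C), and it carried 2 separate AGGTCA cores and a STAT6-type site. At least 2 AGGTCA cores occurred in 2.88% of all peaks. This peak stood in row 4 of the 2537 rows of the file, the other Clec16a peak in row 1015 and the intergenic peak in row 89. The file gives no strength for single peaks, and its header does not state what the order means, so rows are not read as strength. DR1 matches were present in 24.9% of the peaks in rows 1 to 507 and in 14.4% of those in rows 2030 to 2537.

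Around Socs1 the window of 100 kb on either side of the start held 4 peaks. That number was reached or passed by 0.549% of all genes, Socs7 among them. The fourth peak lay 43.5 kb upstream, in an intron of the long noncoding RNA gene Gm26822 and 5.98 kb upstream of Rmi2, a gene of the BLM helicase complex. It is shown because it carries another DR1 match with 1 mismatch (T11G), on the minus strand, so that the capitals below read as the complement.
Socs1, 43.5 kb upstream, chr16:10828991-10829163: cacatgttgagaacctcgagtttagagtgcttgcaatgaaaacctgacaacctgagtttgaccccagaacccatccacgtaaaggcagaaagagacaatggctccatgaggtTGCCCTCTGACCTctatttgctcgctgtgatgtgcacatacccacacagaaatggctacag
A further Clec16a peak lay just outside the limit, at 101 kb (chr16:10684040-10684212), and it held a DR1 match with 2 mismatches. The farthest peak inside the limit was the one at 83.6 kb. The protamine genes Prm1, Prm2 and Prm3 and the transition protein gene Tnp2, which pack sperm chromatin and stand 3.12 to 20.3 kb upstream of Socs1, had no peak assigned.

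Socs2, which encodes a regulator of growth hormone receptor signalling, had a single assigned peak, intergenic and 25.7 kb upstream of its nearest start. The peak held an exact DR1 match 20 bp from the centre (AGGTCAGAGGTCA at chr10:95442592-95442604), with the same letters as the exact Clec16a match. Only 23 of the 2537 peaks (0.907%) held an exact DR1, and 2 of these 23 were assigned to SOCS family genes. When noncoding genes competed for peaks, this one went to Gm47600, 12.4 kb away, and Socs2 had none. No other peak lay within 100 kb of Socs2. The next ones, at 154 and 235 kb downstream, lay in introns of Cradd, a gene of a death domain adaptor.

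Socs3, which encodes an inhibitor of gp130 receptor signalling such as that of IL-6, had the peak nearest to a start. Its centre stood 1.13 kb upstream of the single protein-coding start at chr11:117969186, just outside the 1000 bp taken as promoter, and was intergenic in the GENCODE basic set. A noncoding Socs3 transcript outside that set starts 270 bp from the centre, and with its start the peak would count as promoter. The same holds for the RefSeq start of Socs3, which lies between the GENCODE start and the peak. Only 1.01% of protein-coding genes had a nearer peak. The sequence held no DR1, AP-1 or STAT match, and its closest DR1 site had 5 mismatches, a number within which 99.4% of all peaks have a site. It held 6 CG dinucleotides and 1 GATA site near its edge.

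A second peak at the Socs3 locus lay 21.1 kb upstream, in an intron of Pgs1, a phosphatidylglycerophosphate synthase gene whose start is 4.02 kb from the peak. It is shown because it was the only peak of the 15 with the STAT palindrome. That motif occurred there at 2 positions, together with 1 AP-1 site, 1 GATA site and 1 AGGTCA core.
Socs3, 21.1 kb upstream in Pgs1, chr11:117990222-117990394: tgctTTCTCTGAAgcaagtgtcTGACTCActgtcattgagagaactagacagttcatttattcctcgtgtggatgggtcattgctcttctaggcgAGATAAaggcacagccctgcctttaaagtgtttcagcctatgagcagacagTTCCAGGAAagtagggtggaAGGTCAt
Over the whole map 8.83% of peaks held a STAT match. None of the 6 assigned peaks did. Taking 3 counts as the most that a count of 0 allows, 0 of 6 leaves room for a share of up to 50.0% (exact upper limit 45.9%).

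Socs5, which encodes a suppressor linked to IL-4 and EGF receptor signalling, had 1 peak, 11.4 kb downstream of its start and inside its own intron. It was the only member with a peak centred in its gene body (1 of 8, against 5.04% of all genes). The centre was repeat-masked, so that Socs5 had no peak when masked centres were left out. The sequence held 1 GATA and 1 RUNX site, with a closest DR1 site of 3 mismatches. No other peak lay within 100 kb, and the next was 226 kb upstream.

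**Figure D2:**
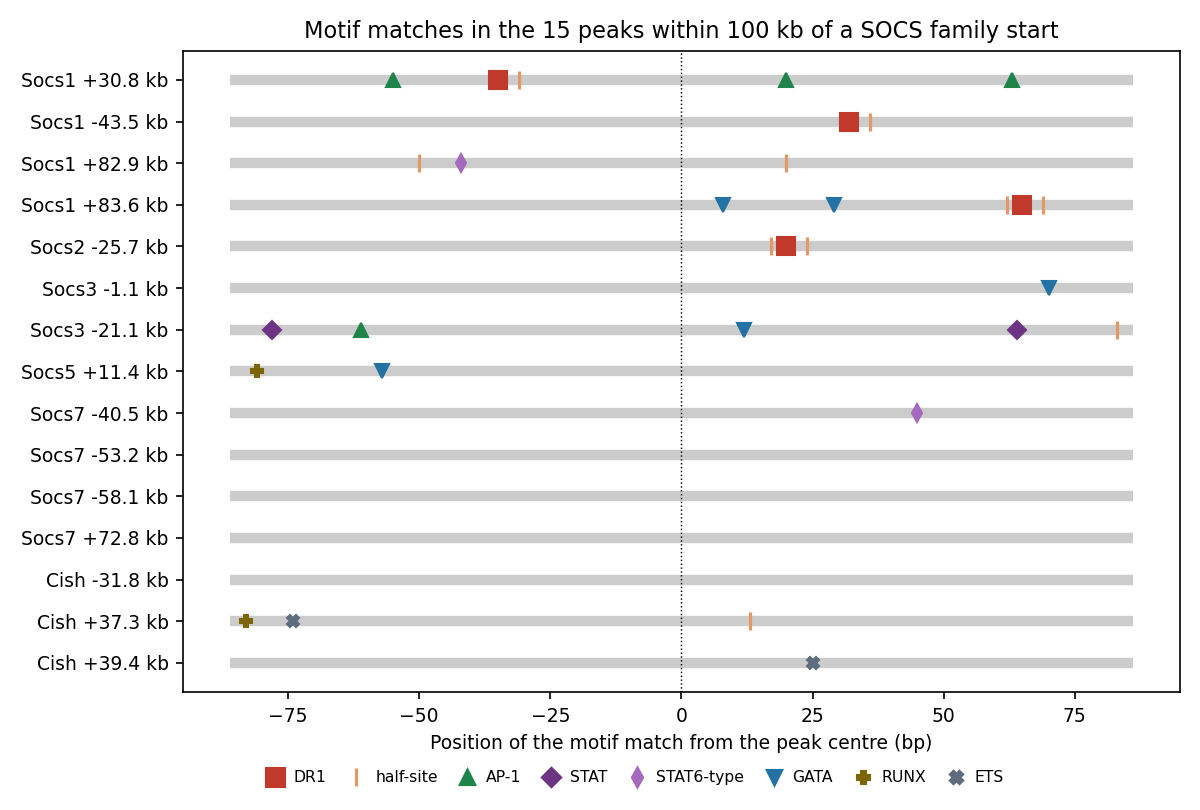
Motif matches in the 15 peaks within 100 kb of a SOCS family start, each row a peak labelled with its member and signed distance, the x axis giving the position of the match from the peak centre in bp. DR1 matches (squares) appear in 3 Socs1 peaks and the Socs2 peak, 3 AP-1 sites in the Socs1 peak at 30.8 kb, and no DR1 in any peak around Socs3, Socs5, Socs7 or Cish.

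The members without an assigned peak fell into 2 kinds. Socs7 and Cish had peaks in the surrounding 100 kb that were nearer to other genes, and Socs4 and Socs6 had none. Socs7, which encodes an adaptor of insulin and prolactin signalling, had 4 such peaks, and 99.5% of all genes had fewer peaks within 100 kb. Of the 4 Socs7 peaks, 3 lay upstream at 40.5, 53.2 and 58.1 kb and were assigned to Mrpl45, a mitochondrial ribosomal protein gene. The other 1 lay 72.8 kb downstream in an intron of Arhgap23, a GTPase-activating protein gene. None held a DR1, AP-1 or exact AGGTCA match. The Mrpl45 peak at 58.1 kb was 96.5% repeat-masked.

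Cish, a STAT5 target whose product restrains IL-2 signalling, had 3 peaks in its surroundings, where 98.3% of genes had fewer, and none of its own. The nearest lay 31.8 kb upstream in an intron of Mapkapk3, a kinase gene of the p38 pathway, and the others lay 37.3 and 39.4 kb downstream in introns of Hemk1, a methyltransferase gene. They carried no DR1 match, and their best sites had 4 or 5 mismatches. By distance alone Cish (31.8 kb) and Socs7 (40.5 kb) did not stand apart from Socs1 (30.8 kb) and Socs2 (25.7 kb): for each of these 4 genes, between 8.17% and 11.8% of protein-coding genes had a nearer peak. They were separated by the assignment rule itself, which takes the start closest to the peak.

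Socs4, a suppressor gene linked to EGF receptor signalling, had its nearest peak 272 kb away, in an intron of the autophagy gene Atg14. Its start lies 74 bp from that of the divergent gene Wdhd1, which had no peak either. Socs6, linked to insulin and KIT signalling, had its nearest peak at 340 kb. Those distances are close to the median over all genes, 318 kb. For Socs6 the nearest protein-coding neighbour was Rttn, a centriole gene 77.4 kb away, also without a peak.

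**Figure D3:**
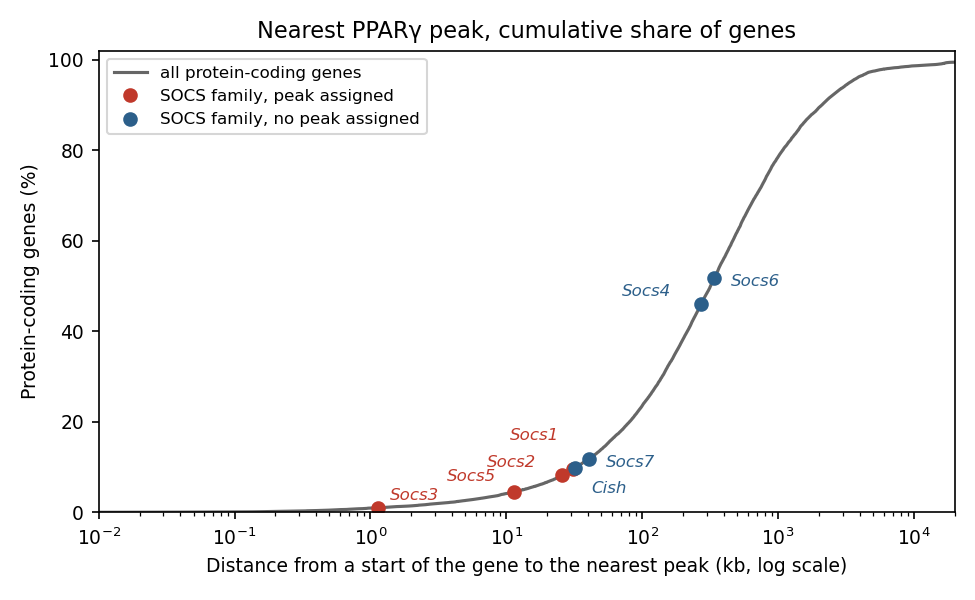
Cumulative share of 21851 protein-coding genes (y axis, percent) by distance from a start of the gene to the nearest PPARγ peak (x axis, kb, log scale), with the 8 SOCS family genes marked. Socs3, Socs5, Socs2, Socs1, Cish and Socs7 lie between 1.13 and 40.5 kb, while Socs4 and Socs6 stand near the middle of the curve.

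The sequence assigned to each gene, that is, the length of genome nearer to its starts than to any other within 100 kb, varied among the members. It was 56.4 to 120 kb for the 4 members with an assigned peak. Without one, it was 10.7 kb for Socs4, 24.6 kb for Cish, 31.8 kb for Socs7 and 139 kb for Socs6, and the median over all genes was 47.4 kb. Of the 4 members without a peak, 3 thus had less sequence from which a peak could be assigned, and its part in the count was not tested.

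DR1 matches in the genome did not by themselves mark the members with peaks. Within 100 kb of the start, matches with up to 2 mismatches numbered 44 at Socs1, 32 at Socs2, 36 at Socs3 and 30 at Socs5. Members without an assigned peak had 30 (Socs4), 24 (Socs6), 42 (Socs7) and 39 (Cish), and the median over all genes was 31. The 2 sets of members overlapped. Socs1 stood out for close matches: 14 had at most 1 mismatch, where 98.8% of genes had fewer, and 10 of these 14 lay in repeat-masked sequence. Of the 14, 3 lay in a peak (21.4%), 1 of them in the upstream peak assigned to Rmi2. Over the whole genome 0.361% of 44361 such matches lay in a peak. That share includes sequence far from any peak, whereas the Socs1 window was already known to hold 4 peaks, so the 2 shares are not like for like. Socs2 had 4 close matches, 1 of them in a peak. The members other than Socs1 and Socs2 had no close match in a peak, among them Socs4 and Socs7 with 8 close matches each.

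**Figure D4:**
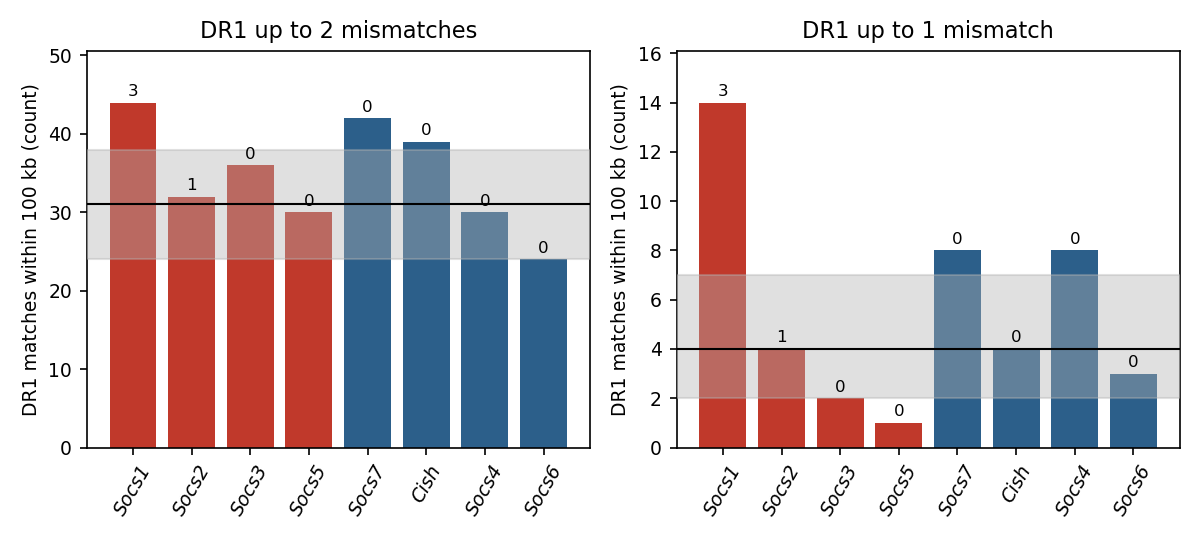
DR1 matches within 100 kb of the most upstream start of each SOCS family gene (count), with up to 2 mismatches (left) and up to 1 (right); red bars are members with an assigned peak, blue bars members without. The number above a bar is how many of these matches lie in a peak, the line is the median of all protein-coding genes and the grey band their quartiles. Socs1 has 14 close matches, 3 of them in peaks, and Socs2 has 4, 1 of them in a peak.

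The peaks assigned to the family had a GC content of 43.9 to 60.1%, beside a median of 43.4% over all peaks. The DR1 matches that lay in peaks at the family shared features that the choice of members did not use. Among the 6 assigned peaks 3 held DR1 (50.0%, exact interval 11.8 to 88.2), against 18.2% of all peaks, and of the other 9 peaks in the surroundings 1 did. All 4 of these matches, 3 around Socs1 and 1 at Socs2, had at most 1 mismatch, which 6.07% of all peaks reached. All 4 had a G in the spacer and a G directly upstream of the element. Of the 154 peaks with a match that close, 46.8% had G and 44.8% had A in the spacer, and 31.2% had G and 46.8% had T upstream. With up to 2 mismatches (461 peaks) the spacer was G in 33.6% and A in 51.2%. Among close matches the G and A spacers were thus about equally common (72 and 69 of 154 peaks), and exact matches in peaks had G in 13 of 23. All 13 bases of each of the 4 matches lay in repeat-masked sequence, although 3 of the 4 peaks had an unmasked centre. Over the map the best match was masked in 48 of the 154 peaks with at most 1 mismatch (31.2%), in 15 of the 23 with an exact match and in 72 of all 461 (15.6%). Of the 4501 exact matches in the genome, 67.6% were masked and 64.6% had a G spacer. Tags were kept where they aligned to a unique position, and the part of repeats in these peaks was not tested.

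No peak was centred in the promoter of a SOCS family protein-coding start. In the window from 250 bases before to 50 after the most upstream protein-coding start, 0 of 8 members had a DR1, AP-1 or AGGTCA match, against 3.23%, 4.45% and 14.5% of all protein-coding genes. STAT palindromes were present at Socs2 (2 positions) and Socs3 (1 position), against 8.21% of genes. RefSeq promoters (GRCm38.p6) were matched for 4 members, Cish, Socs1, Socs3 and Socs4. There Cish had 2 STAT palindromes and Socs3 had 1, against 8.92% of genes with such promoters. The RefSeq start lies downstream of the GENCODE start used above for Cish, and upstream of it for Socs3. The RefSeq site of Socs3 falls outside its GENCODE window and is not the one counted above. The RefSeq sites are shown, 9 bases in capitals, because STATs are known activators of both genes, and the peak assigned to Socs3 held no such match.
Cish, chr9:107296659-107296667, plus strand: gcccagttTTCCTGGAAagttcttg
Cish, chr9:107296670-107296678, plus strand: ctggaaagTTCTTGGAAatctgtca
Socs3, chr11:117969512-117969520, minus strand: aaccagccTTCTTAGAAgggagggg
A match describes letters in a window and not a bound site. GC content of the windows ran from 46.7% at Cish to 81.0% at Socs7, against a median of 55.7%.

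The rest of the pathway was then counted in the same way, by 7 gene lists. Cytokine receptors had an assigned peak at 6 of 41 genes (14.6%), beside 7.68% of all genes. The nearest were at Il6st, the gene of gp130 (1.28 kb), and Il2ra, the IL-2 receptor alpha chain gene (1.33 kb, with DR1), followed by Il6ra (4.50 kb, with DR1), Il7r (6.44 kb, with DR1, 1 of 4 peaks), Il4ra (13.8 kb) and Il15ra (15.8 kb, in an intron of Il2ra). Among JAKs and STATs 2 of 11 had one, and that of Jak2, the kinase gene of many of these receptors, lay in its own intron, 4.23 kb from the start. Cytokine ligand genes had 4 of 29: Ebi3 (78 bp), Lif (3.51 kb), Il10 (19.3 kb) and Il12a (67.4 kb), none with DR1.

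STAT target genes had the highest share of the 7 lists, 6 of 15 (40.0%, exact interval 16.3 to 67.7). These were Myc (1.98 kb), the survival kinase gene Pim1 (7.29 kb), Maf (18.7 kb), Prdm1 (22.3 kb), Bcl2 (85.9 kb) and Ccnd2 (89.1 kb), and none of their 10 peaks held DR1. Other suppressors of the pathway had 3 of 13: the phosphatase genes Ptpn2 (431 bp upstream) and Ptpn1 (75.2 kb, 3 peaks, 1 with DR1) and the ubiquitin ligase gene Cblb (94.1 kb). The genes of the elongins, cullins and RING proteins that work with SOCS boxes had none (0 of 6, up to 50.0% by the limit of 3 counts, exact upper limit 45.9%). The other genes that encode a SOCS box, of the ASB, SPSB and WSB families, had none either (0 of 24, up to 12.5% by the limit of 3 counts, exact upper limit 14.2%). Assigned peaks with DR1 were present at 2 of 8 SOCS family genes, 3 of 41 receptors, 1 of 13 other suppressors and 0 of 15 STAT targets, beside 1.75% of all genes. Differences between these lists were not tested, and neighbouring genes can share a peak region.

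**Figure D5:**
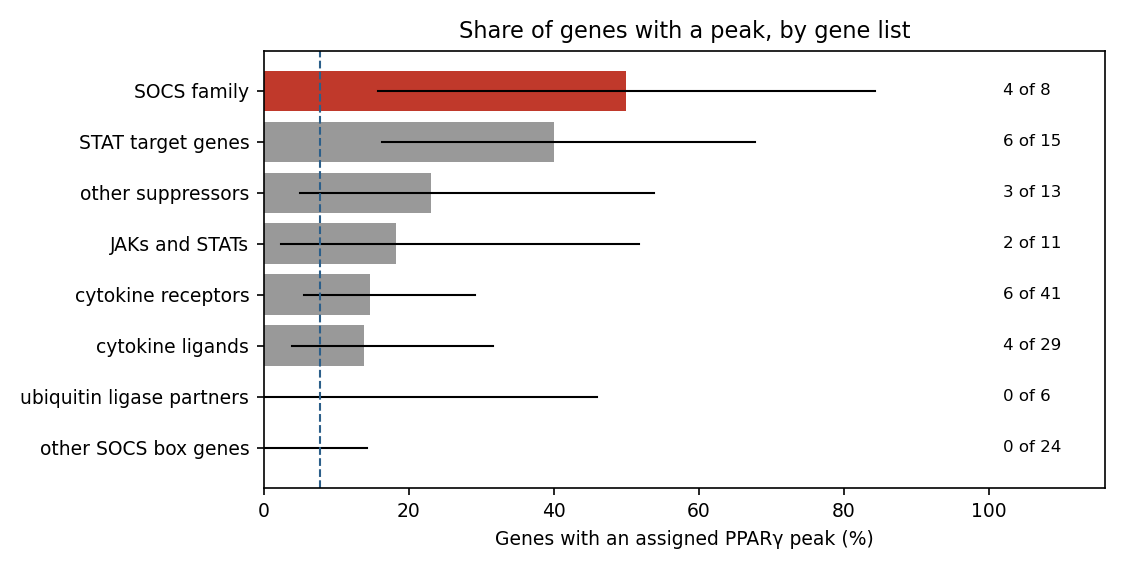
Share of genes with an assigned PPARγ peak (x axis, percent) for the SOCS family and 7 lists of the same pathway, with counts at the right, exact 95% binomial intervals as black lines, and the share of all protein-coding genes (7.68%) as a dashed line. The SOCS family (4 of 8) and the STAT target genes (6 of 15) have the highest shares, and 2 lists have no gene with a peak.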

How the data were processed

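PPARγ binding was measured by ChIP-seq in 1 library, with 1 input library as background. The authors aligned reads to mm10 with Bowtie2 and called peaks with HOMER, per the submitters' processing notes, and kept tags with a unique position, per the series text; versions are not given in the sources used here. Read length is 100 bp in the series text and 50 bp in the extract protocol, and no value here uses it. Per the file headers, 10229438 tags were used, 54617 of them in peaks, a mean of 21.5 per peak. Peaks needed 8 tags, 4-fold over the input and 4-fold over the surrounding 10000 bp. The deposited score is 1 in every row and ranks no peak, so the planned stricter threshold could not be applied. The input library was not analysed here on its own.

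Coordinates count from 1. Sequence and repeat masking came from GRCm38 (mm10), whose chromosome lengths hold every peak. Starts were those of protein-coding transcripts of protein-coding genes in the GENCODE vM21 basic set, without the mitochondrial genome; this set was chosen after counts with all transcript starts had been seen, which are given as an alternative. Peak class was that of the centre, in the order promoter (1000 bp upstream to 100 bp downstream of any start in the basic set), exon, intron, intergenic. Motifs were searched on both strands; AP-1 matches count once, and AGGTCA overlaps DR1. The assignment and the DR1 search were tested on simulated data. Intervals are exact (Clopper-Pearson). Text names the 8 members, genes holding a peak within 100 kb of them, their nearest neighbours, and up to 6 genes per list, those with the nearest peak, except 1 that is not reported here; the Prm genes, Tnp2 and Cradd are named outside that rule and were chosen after their values were seen. Members and lists were chosen with earlier results of these data known. Scripts ran in Python 3.11.15 (pandas 2.3.3, numpy 2.4.6); scipy 1.17.1 gave the intervals and matplotlib 3.10.9 the figures.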

Additional observations from a re-analysis of the deposited data

How the results depend on the processing

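The 4 members with an assigned peak were Socs1, Socs2, Socs3 and Socs5 under limits of 50 kb and of any distance, with the most upstream start only, and with all transcript starts of protein-coding genes (an alternative chosen after seeing the data, which left 4 member peaks and 7.95% of genes). Within 10 kb 1 member had 1 peak (3.38% of genes), by gene body 1 member had 1 peak (5.04%), and with any start within 100 kb 6 members had 15 peaks (23.5%). When noncoding genes competed for peaks, 3 members kept 3 peaks (4.84% of genes): the Socs2 peak and the Clec16a peaks went to noncoding genes. Outside repeats 3 members kept 5 peaks (6.59%). The share of genes was 6.76% within 50 kb and 8.59% at any distance. DR1 was in 5 of 6 member peaks with 3 mismatches allowed (44.9% of all peaks), and in 3 of 6 with 1 mismatch (6.07%), in 200 bp (19.8%) and in 400 bp (24.9%). Within 10 kb, lists had 1 (JAKs and STATs), 2 (ligands), 1 (other suppressors) and 2 (STAT targets) genes with a peak. By gene body they had 2 (ligands), 1 (other suppressors) and 2 (STAT targets), and with any start within 100 kb 13 (ligands), 3 (ligase partners) and 3 (other SOCS box genes). No paired analysis was possible because the result comes from no test and each group holds 1 library. With no replicate and a minimum of 8 tags for a peak, no peak was detectable at this depth within 100 kb of Socs4 or Socs6. Peaks near Socs7 and Cish were detected and assigned to nearer starts.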
